A study of Mus musculus with 2 samples.

Results

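Il31ra, Grik3 and Akr1c19 are 3 of the 32285 genes counted in 2 single-cell libraries of mouse proximal small intestine. They were chosen because nearly all of their counts came from 1 library: Il31ra was high in control 2, and Grik3 and Akr1c19 were high in control 1. The values that chose them are these totals, so the difference between the libraries is given as a description and carries no test. What the choice did not use is which cell classes and barcodes held the counts.

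The series concerns mice in which the M1 or M3 muscarinic acetylcholine receptor was knocked down. Both libraries analysed here are from C57BL/6 control mice: control 1 is titled as an M1 control and control 2 as an M3 control. The villus and crypt fractions of each intestine were released with EDTA and a trypsin-like enzyme, pooled, and made into 3′-end single-cell libraries in which a unique molecular identifier (UMI) marks each captured RNA molecule. The labels do not give age, promoter or agent for the controls, do not say whether the libraries came from separate or pooled animals, and leave 1 library for each kind of control, so library, animal and mouse line cannot be told apart. Y-linked genes were present in both libraries (Ddx3y at 59.2 and 43.2 counts per 1000000 UMIs, CPM), and the X-inactivation transcript Xist had 10 and 2 UMIs.

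Il31ra encodes the receptor chain that binds interleukin-31; it pairs with the oncostatin M receptor (Osmr) and signals through Janus kinases and STAT proteins, and it is best known from itch-sensing neurons, skin and myeloid cells. Grik3 encodes GluK3, a subunit of the kainate-type glutamate receptors, cation channels of the nervous system that work with the auxiliary subunits Neto1 and Neto2. Akr1c19 encodes a member of the aldo-keto reductase 1C family, cytosolic enzymes that reduce carbonyl groups of steroids and other small molecules and that are found in liver and gut.

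Each of the 3 genes overlaps, on its own strand, a processed pseudogene, that is, a copy of a spliced messenger RNA that was inserted into the genome. The positions are those of GENCODE M21 on GRCm38. Grik3 (ENSMUSG00000001985) lies on the plus strand at chr4:125490700-125714173, and Ftl2-ps, a copy of the ferritin light chain gene Ftl1, lies in its first intron at chr4:125504288-125504839. Ftl2-ps was 98.7% identical to Ftl1 and 99.1% identical to another ferritin copy, Ftl1-ps1, over 552 bases. Il31ra (ENSMUSG00000050377) lies on the minus strand at chr13:112519898-112594360, and its 5′ end, with a first exon that 2 of its 8 transcripts share, overlaps Gm3226 at chr13:112593743-112595084, which was 98.7% identical to the tubulin gene Tuba1b over 1349 aligned bases. Akr1c19 (ENSMUSG00000071551) lies on the plus strand at chr13:4228700-4252843, and the 291 bases of Marcksl1-ps4 sit inside the 3′ UTR of the last exon of 1 of its 3 transcripts, 90.2% identical to Marcksl1. No row of the count tables matched Ftl2-ps, Gm3226 or Marcksl1-ps4, so their own UMIs were not analysed here, while Ftl1, Ftl1-ps1, Tuba1b and Marcksl1 each had a row. Reads from near-identical copies can be hard to place on 1 of them, and exons make up 4.02% of the Grik3 gene, 7.62% of Il31ra and 24.4% of Akr1c19. The sources used here do not give whether intronic reads were counted, so the UMIs listed under Grik3 and Il31ra are uncertain as measures of their messenger RNA.

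Control 1 held 54451793 UMIs in 9342 barcodes and control 2 held 36139325 UMIs in 7109 barcodes. Cells with at least 500 detected genes and under 25% mitochondrial UMIs were kept, which left 7120 cells (44932636 UMIs, median 3446 per cell) and 4742 cells (27310864 UMIs, median 3019.5 per cell). In 522 and 683 barcodes more than 50% of the UMIs were from hemoglobin genes. The libraries shared 17 barcode sequences, 8 of them among kept cells. Kept cells of both libraries were clustered together with the 3 genes left out, and clusters were named only where at least 3 markers of a class were detected. All but 3 of the 29 clusters fell into 11 named classes, among them 3442 and 2313 enterocyte-like cells, 2352 and 1532 T or natural killer (T/NK)-like cells, 607 and 292 progenitor-like cells, 110 and 248 goblet-like cells and 122 and 41 myeloid-like cells in control 1 and control 2. The enterocyte-like clusters detected 11 to 14 of their markers, while the clusters of 334 and 193 cells whose leading genes went against the best-scoring class stayed unnamed. Doublets were scored but kept: the caller marked 0.829% of kept cells in control 1 and 0.654% in control 2.

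In kept cells, Il31ra had 3216 UMIs in control 2 (118 CPM, 95% interval 114 to 122) and 73 in control 1 (1.62 CPM, 1.27 to 2.04), a 72.5-fold difference in level (57.5 to 92.7) that was 31.9-fold over all barcodes (27.8 to 36.8). Grik3 had 1472 UMIs in control 1 (32.8 CPM, 31.1 to 34.5) and 7 in control 2 (0.256 CPM, 0.103 to 0.528), a 128-fold difference (61.9 to 318). Akr1c19 had 6150 UMIs in control 1 (137 CPM, 133 to 140) and 485 in control 2 (17.8 CPM, 16.2 to 19.4), a 7.71-fold difference (7.03 to 8.47). Each library's levels lay outside the interval of the other for all 3 genes. The genes were chosen on this difference, so that is a description and adds no support. These exact intervals, like all that follow, cover counting error only, and no replicate of either kind of control was at hand to measure the spread between libraries.

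Past a 10-fold difference lay 0.268% of the 13083 genes with at least 100 UMIs in the kept cells of both libraries together, 0.122% higher in control 1 and 0.145% higher in control 2. Il31ra and Grik3 were among them and Akr1c19 was not; a 5-fold difference, which Akr1c19 passed, was reached by 0.696% of the genes, 0.336% higher in control 1 and 0.359% higher in control 2. By the size of the ratio, Grik3 ranked first and Akr1c19 rank 25 among genes higher in control 1, and Il31ra ranked 4 among those higher in control 2. Since the genes were chosen on this contrast, nothing is read from their place in it.

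**Figure D1:**
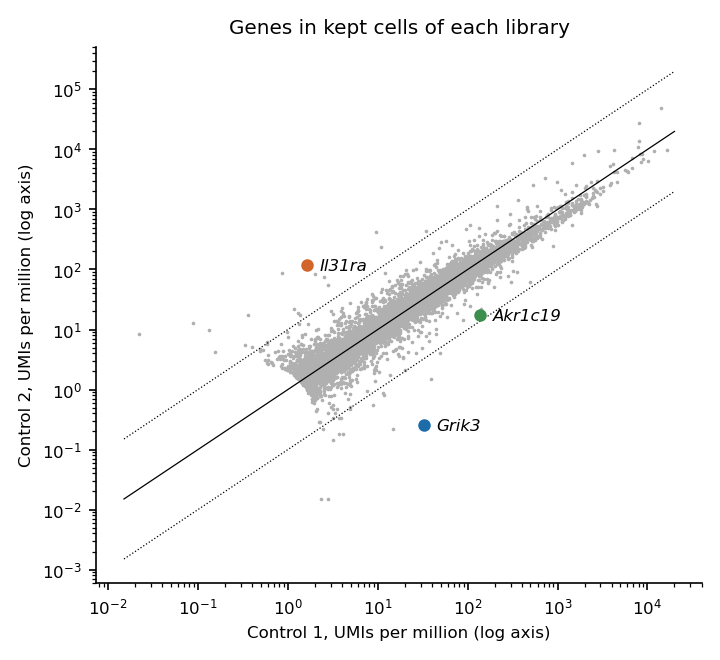
Level of each of the 13083 genes with at least 100 UMIs in kept cells of control 1 (x axis) and control 2 (y axis), in CPM on log axes. The solid line marks equal levels and the dotted lines a 10-fold difference; genes at 0 in a library are drawn at an arbitrary low level. Il31ra (118 against 1.62) and Grik3 (32.8 against 0.256) lie outside the dotted lines and Akr1c19 (137 against 17.8) lies inside.

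The UMIs of each gene were spread over many cells, not held by a few. Il31ra was seen in 1511 of 4742 kept cells of control 2 (31.9%, interval 30.5 to 33.2), Grik3 in 1108 of 7120 cells of control 1 (15.6%, 14.7 to 16.4) and Akr1c19 in 2016 of 7120 cells of control 1 (28.3%, 27.3 to 29.4). In the library where each was low, Il31ra was seen in 60 cells (0.843%), Grik3 in 7 cells (0.148%) and Akr1c19 in 320 cells (6.75%). Most positive cells had a single UMI: 889 of the 1511 for Il31ra, 879 of the 1108 for Grik3 and 973 of the 2016 for Akr1c19. At least 287 cells were needed to reach 50% of the Il31ra UMIs, 372 for Grik3 and 250 for Akr1c19.

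The 10 cells with most UMIs held 6.72% of the Il31ra UMIs, 4.14% of the Grik3 UMIs and 9.25% of the Akr1c19 UMIs. Among genes with at least 100 UMIs in the same library, the median share of the top 10 cells was 9.51% in control 2 and 8.31% in control 1. A higher share than that of the gene itself was found for 76.9% of genes against Il31ra, 93.1% against Grik3 and 42.7% against Akr1c19. The compared genes were not matched to Il31ra, Grik3 or Akr1c19 on total UMIs. The lowest share that the top 10 cells can hold is larger for a gene with fewer UMIs. These percentages therefore depend in part on UMI totals, and no rank in evenness is read from them.

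The cells at the top differed in kind. The most Il31ra UMIs in 1 cell were 41, in a goblet-like cell with 4893 UMIs in all, and 3 of the top 10 cells were goblet-like. The other 7 were enterocyte-like cells with 20580 to 73262 UMIs and 11.4% to 20.1% mitochondrial UMIs. The most Grik3 UMIs in 1 cell were 7, reached by 4 cells with 49408 to 324757 UMIs, and the top 10 Grik3 cells held 3.13% of all UMIs of the library against 4.14% of the Grik3 UMIs. The cell with most Akr1c19 UMIs, an enterocyte-like cell of 259561 UMIs, held 1.64% of them, and all of the top 10 were enterocyte-like cells of 1 cluster with 92093 to 324757 UMIs. These barcodes were far deeper than the median cell of 3446 UMIs, as were the top Grik3 cells, among which a myeloid-like cell of 9180 UMIs was the shallowest. In the 10 Akr1c19 cells the tuft cell genes Dclk1 (41.7 against 0.370 CPM) and Rgs13 (22.7 against 0.159) stood out against the other enterocyte-like cells. In the 10 Grik3 cells the goblet cell genes Agr2 (598 against 26.4) and Spink4 (893 against 77.1) stood out most against other cells of the same classes. Whether these barcodes held more than 1 cell was not tested.

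**Figure D2:**
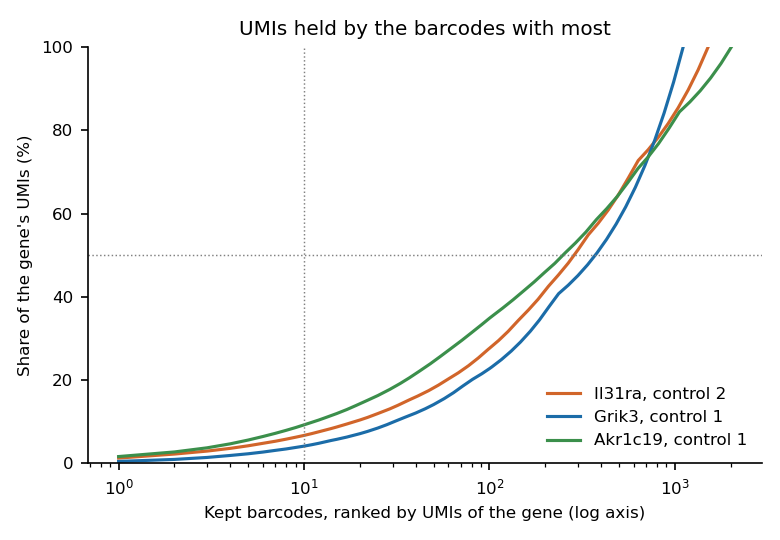
Share of a gene's UMIs (y axis, percent) held by the kept barcodes with most UMIs of that gene, against the number of barcodes counted from the top (x axis, log axis), each in the library where the gene was high. The dotted lines mark 10 barcodes and 50% of the UMIs; 10 barcodes held 4.14% (Grik3), 6.72% (Il31ra) and 9.25% (Akr1c19), and 50% was reached at 372, 287 and 250 barcodes.

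Il31ra was found in all 11 named classes of control 2, at levels from 38.6 CPM in enteroendocrine-like cells to 216 in goblet-like cells, a 5.58-fold span. Goblet-like cells, which make mucus, carried 721 UMIs (216 CPM, 200 to 232) and a UMI in 78.6% of 248 cells. Enterocyte-like cells, the absorptive cells, carried 1614 UMIs (140 CPM, 134 to 147), 50.2% of the total, with a UMI in 30.9% of cells. That share of the total was 28.8% where cells with at least 200 genes were kept and clustered, since 842 of these cells then fell in an unnamed cluster. T/NK-like cells carried 500 UMIs (68.7 CPM, 62.8 to 75.0), progenitor-like cells 149 (81.0, 68.5 to 95.1) and Paneth-like cells 46 (44.8, 32.8 to 59.7). The level in goblet-like cells thus lay above that in enterocyte-like cells, and both lay above T/NK-like, progenitor-like and Paneth-like cells, beyond counting error. Myeloid-like cells, where the receptor is known, had 15 UMIs (194 CPM, 108 to 320), and their interval overlapped those of goblet-like and enterocyte-like cells.

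Median depth differed between the classes, from 2344 UMIs in enterocyte-like to 8958 in goblet-like cells of control 2. After every cell was thinned to 2000 UMIs, and shallower cells were left out (954 enterocyte-like, 15 goblet-like and 357 T/NK-like cells), 37.3% of goblet-like, 23.2% of enterocyte-like and 12.4% of T/NK-like cells had an Il31ra UMI. The order of these classes was the one seen in the levels. In barcodes dominated by hemoglobin, taken as red blood cells that should lack the gene, 147 of 683 (21.5%) had an Il31ra UMI, at 38.2 CPM. Hemoglobin UMIs made up more than 50% of the UMIs of these barcodes and so lowered that level. Kept erythroid-like cells of control 2 stood at 82.5 CPM (52.9 to 123), with a UMI in 53.8% of 26 cells, and barcodes under 500 genes with at most 50% hemoglobin stood at 169 CPM (148 to 191), with a UMI in 12.3% of 1433. The levels of T/NK-like (68.7), progenitor-like (81.0) and enterocyte-like cells (140) did not exceed all of these values. Il31ra UMIs in those classes, like those in enteroendocrine-like, Paneth-like and plasmacytoid dendritic-like cells, were not separated from RNA found outside its cell of origin. Goblet-like cells (216 CPM, 200 to 232) stood above these values in the clustering reported. Their level was 191 under 10% mitochondrial UMIs, 191 without the 10 barcodes with most UMIs and 185 at Leiden resolution 2.0. None of these exceeded the upper limit of 191 for the barcodes under 500 genes. Those barcodes had no limit on mitochondrial UMIs and were not changed along with these settings. The comparison therefore cannot decide whether the goblet-like UMIs were separate from RNA found outside its cell of origin.

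In control 1 the 73 Il31ra UMIs lay mostly in enterocyte-like cells (49 UMIs, 2.35 CPM), and 7 of the 11 classes had any. Goblet-like cells had 2 UMIs in control 1 and 721 in control 2, a ratio in level of 167 (46.0 to 1381). The ratio was 59.7 (45.0 to 81.1) in enterocyte-like cells and 104 (52.4 to 242) in T/NK-like cells, both inside the goblet-like interval. These ratios split by class the contrast on which Il31ra was chosen, with 1 library on each side. In both libraries the level was highest in barcodes that the filter on mitochondrial UMIs left out. The 273 such barcodes of control 2 had 315 Il31ra CPM (295 to 336), with a UMI in 88.3%, and the 503 of control 1 had 24.4 CPM (20.2 to 29.2), with 119 of the 215 Il31ra UMIs of all control 1 barcodes. By mitochondrial share, the control 2 level was 122 CPM in barcodes under 1%, 87.9 from 1% to 5%, 93.1 from 5% to 10%, 218 from 10% to 25%, 307 from 25% to 50% and 349 at 50% or more. In control 1 the same bins gave 1.46, 1.14, 0.616, 5.35, 24.7 and 23.9. A high mitochondrial share is commonly read as a sign of damaged cells; its part in the Il31ra counts was not tested.

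**Figure D3:**
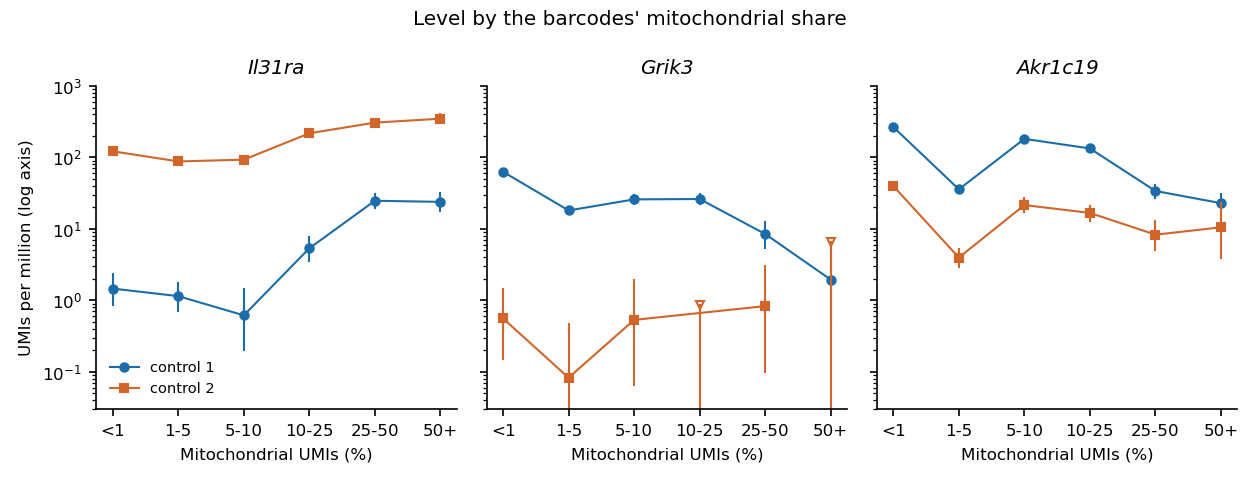
Level of Il31ra, Grik3 and Akr1c19 (y axis, CPM, log axis) in barcodes with at least 500 genes, by the share of mitochondrial UMIs (x axis, percent), for control 1 (circles) and control 2 (squares). Bars are exact 95% Poisson intervals and open triangles mark the upper limit where no UMI was found. In control 2, Il31ra was at 93.1 from 5% to 10% and at 349 at 50% or more; in control 1, Grik3 was at 62.9 under 1% and at 1.95 at 50% or more.

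Within the enterocyte-like class of control 2, Il31ra ran from 75.6 CPM in the cluster led by Gng11, Cym and Fabp2 to 213 in the cluster led by Clca4a, Ly6m and Ada, whose median mitochondrial share over both libraries was 14.2%. The cluster led by the apolipoprotein genes Apoa1 and Apoc3 had 176 with a median mitochondrial share of 0.171%.

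Grik3 was also found in all 11 named classes of control 1, but with a 43.0-fold span. The highest level was in myeloid-like cells, led by the macrophage genes Apoe, C1qa, C1qb and C1qc, with 80 UMIs in 55 of 122 cells (247 CPM, 196 to 307). In other clusterings the myeloid-like level was lower, from 121 at the finer Leiden resolution of 2.0 to 210 with at least 200 genes. Enterocyte-like cells had 1024 UMIs (49.1 CPM, 46.2 to 52.2), 69.6% of the total, or 46.0% in the clustering of cells with at least 200 genes. T/NK-like cells had 166 UMIs (13.7, 11.7 to 16.0), progenitor-like cells 85 (17.0, 13.6 to 21.0), goblet-like cells 22 (14.2, 8.91 to 21.5) and Paneth-like cells 7 (5.74, 2.31 to 11.8). Myeloid-like cells thus stood above enterocyte-like cells, and those above the 4 other classes named here, beyond counting error, while T/NK-like, progenitor-like and goblet-like cells did not separate. With cells thinned to 2000 UMIs, 47.2% of myeloid-like, 12.2% of enterocyte-like, 3.56% of progenitor-like and 2.47% of T/NK-like cells had a UMI, beside unthinned shares of 45.1%, 21.2%, 10.4% and 6.80%. Barcodes dominated by hemoglobin had 20.8 Grik3 CPM (16.4 to 26.1), with a UMI in 13.0%, beside 15.6% of all kept cells. The progenitor-like, goblet-like, T/NK-like and Paneth-like levels were below that value, and kept erythroid-like cells stood at 23.8 CPM, so Grik3 UMIs in those 4 classes were not separated from RNA found outside its cell of origin. Barcodes under 500 genes with at most 50% hemoglobin stood at 35.1 CPM (26.1 to 46.3). Enteroendocrine-like (25.7), plasmacytoid dendritic-like (26.2), tuft-like (32.4) and B/plasma-like cells (12.7) stood below that level, so their Grik3 UMIs were not separated either. Enterocyte-like cells (49.1, 46.2 to 52.2) stood above that level, but the 2 intervals overlapped. The enterocyte-like Grik3 UMIs were thus not firmly separated. In control 2 the 7 UMIs lay in 7 cells, 4 enterocyte-like, 2 T/NK-like and 1 unnamed; the 41 myeloid-like cells had none, which allows a level of up to 47.7 CPM.

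The Grik3 counts ran in step with those of Ftl1, the parent of the pseudogene in its first intron, which encodes an iron-storage protein. In control 1, Ftl1 stood at 11433 CPM in myeloid-like, 2324 in enterocyte-like, 539 in T/NK-like and 338 in Paneth-like cells, the order that Grik3 also had. Over kept cells there were 21.4 Grik3 UMIs for every 1000 Ftl1 UMIs (20.3 to 22.5). The figure was 21.6 (17.1 to 26.9) in myeloid-like, 21.1 (19.8 to 22.5) in enterocyte-like, 20.4 (16.3 to 25.3) in progenitor-like, 20.1 (12.5 to 30.6) in goblet-like and 25.4 (21.7 to 29.7) in T/NK-like cells. The intervals of 10 of the 11 classes held the value of all kept cells, T/NK-like cells being the exception, although Grik3 itself differed 43.0-fold between the classes. The barcodes left out for mitochondrial UMIs gave 21.3 (14.1 to 30.9) and those dominated by hemoglobin 17.9 (14.1 to 22.5). In the 7 classes where both libraries had 20 cells or more, the control 1 levels of the 2 genes, as log2 of CPM plus 1, had a Pearson r of 0.97; these points share a library and differ in depth.

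Ftl1 itself was similar in the libraries, at 1533 CPM in control 1 and 1134 in control 2 (1.35-fold). In control 2 its myeloid-like level was 13153 and its enterocyte-like level 1862, yet the count there was 0.226 Grik3 UMIs for every 1000 of Ftl1 (0.0908 to 0.466). Ftl1-ps1, a ferritin copy with its own row, differed in the same direction as Grik3: 3976 UMIs (88.5 CPM) in control 1 and 390 (14.3 CPM) in control 2, a 6.20-fold ratio. For every 1000 Ftl1 UMIs there were 57.7 Ftl1-ps1 UMIs in control 1, with the intervals of all 11 classes holding that value, and 12.6 in control 2. So the Grik3 and Ftl1-ps1 rows held 21.4 and 57.7 UMIs for each 1000 of Ftl1 in control 1. In control 2 they held 0.226 and 12.6. Which molecules gave these UMIs was not tested.

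**Figure D4:**
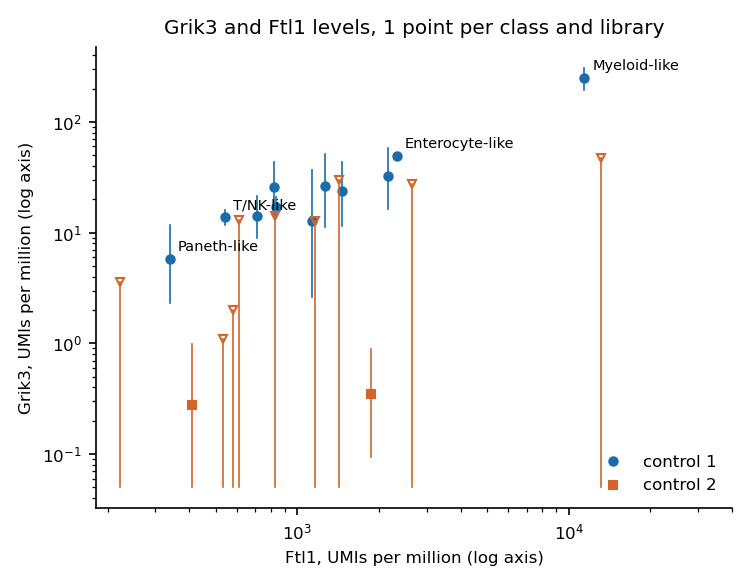
Grik3 level (y axis) against Ftl1 level (x axis) in each of the 11 named classes, in CPM on log axes, for control 1 (circles) and control 2 (squares). Bars are exact 95% Poisson intervals of Grik3 and open triangles mark its upper limit where no UMI was found. The control 1 points climb together from Paneth-like (5.74 and 338) to myeloid-like cells (247 and 11433), while the 2 filled control 2 points lie at 0.275 and 0.348.

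Akr1c19 levels spanned 65.5-fold over the 11 classes of control 1. In control 1, 5599 of its 6150 UMIs (91.0%) lay in enterocyte-like cells, at 269 CPM (262 to 276) and with a UMI in 49.6% of cells. The enterocyte-like cells held 46.4% of all UMIs of that library. With under 10% mitochondrial UMIs the share of Akr1c19 was 59.7%, as 167 of these cells, with 30.1% of their Akr1c19 UMIs, were then called progenitor-like, and with at least 200 genes it was 52.4%. Progenitor-like cells had 300 UMIs (60.0 CPM, 53.4 to 67.2), enteroendocrine-like cells 24 (44.0, 28.2 to 65.5), goblet-like cells 18 (11.6, 6.89 to 18.4) and T/NK-like cells 129 (10.7, 8.90 to 12.7). Enterocyte-like cells were thus above progenitor-like cells and those above goblet-like and T/NK-like cells, beyond counting error. Tuft-like cells stood at 82.5 CPM, but their 28 UMIs came from 2 cells. With cells thinned to 2000 UMIs, 41.1% of enterocyte-like, 15.2% of progenitor-like and 1.31% of T/NK-like cells had a UMI. The T/NK-like cells, lymphocytes that serve as a measure of stray RNA, had an unthinned share of 3.53% at a median of 5045 UMIs, against 2400 in enterocyte-like cells. Hemoglobin-dominated barcodes had 7.78 CPM, a level lowered by their hemoglobin UMIs. Kept erythroid-like cells stood at 66.6 CPM (44.2 to 96.2), with a UMI in 39.5% of 38 cells. Barcodes under 500 genes with at most 50% hemoglobin stood at 58.3 CPM (46.4 to 72.3). The progenitor-like, enteroendocrine-like, goblet-like and T/NK-like levels did not exceed all of these values. Akr1c19 UMIs in those classes were not separated from RNA found outside its cell of origin.

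In control 2, enterocyte-like cells again held most of the UMIs, but the highest level was in enteroendocrine-like cells. There 420 of 485 UMIs (86.6%) lay in enterocyte-like cells at 36.5 CPM (33.1 to 40.2), with a UMI in 11.8% of cells, while progenitor-like cells had 15.2 (10.1 to 22.0) and T/NK-like cells 1.65 (0.852 to 2.88). Enteroendocrine-like cells, the hormone-producing class, stood at 52.7 CPM (29.5 to 86.9) with a UMI in 7 of 10 cells, and their interval included the enterocyte-like level. These 10 cells were deep, with a median of 32292 UMIs against 2344 in enterocyte-like cells. With cells thinned to 2000 UMIs, 0 of the 10 had an Akr1c19 UMI, against 8.68% of enterocyte-like cells. The ratio of control 1 to control 2 was 7.35 (6.65 to 8.13) in enterocyte-like cells, 3.95 (2.67 to 6.04) in progenitor-like cells and 6.46 (3.57 to 12.8) in T/NK-like cells. In enteroendocrine-like cells it was 0.836 (0.421 to 1.71), from 24 UMIs in 24 cells and 15 UMIs in 10 cells. That interval lay below those of the enterocyte-like and progenitor-like ratios, but with 1 library on each side the difference between classes was not tested over samples.

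Enterocyte-like clusters differed in their Akr1c19 level. In control 1 it was 467 CPM in the cluster led by Sult6b2, S100g and Gm2061, 411 in the cluster led by Tstd1, Gstm3 and Il18, where Akr1c19 itself was among the 10 leading genes, 195 in the cluster led by Mbl2, Apoa1 and Dnase1, and 2.03, from 1 UMI, in the cluster led by Clca4a and Ly6m. Both clusters with the highest levels had the glutathione transferase genes Gsta1 and Gm3776 among their leading genes. The most Akr1c19 UMIs of control 1 lay in the cluster led by Mgam, Abcc2 and Enpep, with 2295 (37.3%) in 200 cells. These cells were deep, with a median of 42931 UMIs and 23.4% of all UMIs of the library, and their Akr1c19 level was 218 CPM. The clusters were filled unequally: the cluster led by Tstd1 had 845 cells of control 1 and 179 of control 2, and a cluster led by Apol10a and Gda had 136 and 717. Within a cluster the ratio of control 1 to control 2 ran from 4.47 (1.72 to 14.8) to 10.3 (7.22 to 15.2) in 7 of the 8 enterocyte-like clusters, and was 7.96 (5.74 to 11.4) in the cluster led by Tstd1. These are splits of the contrast on which the gene was chosen, with 1 library on each side. In the last, led by Clca4a, there were 1 and 4 UMIs.

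**Figure D5:**
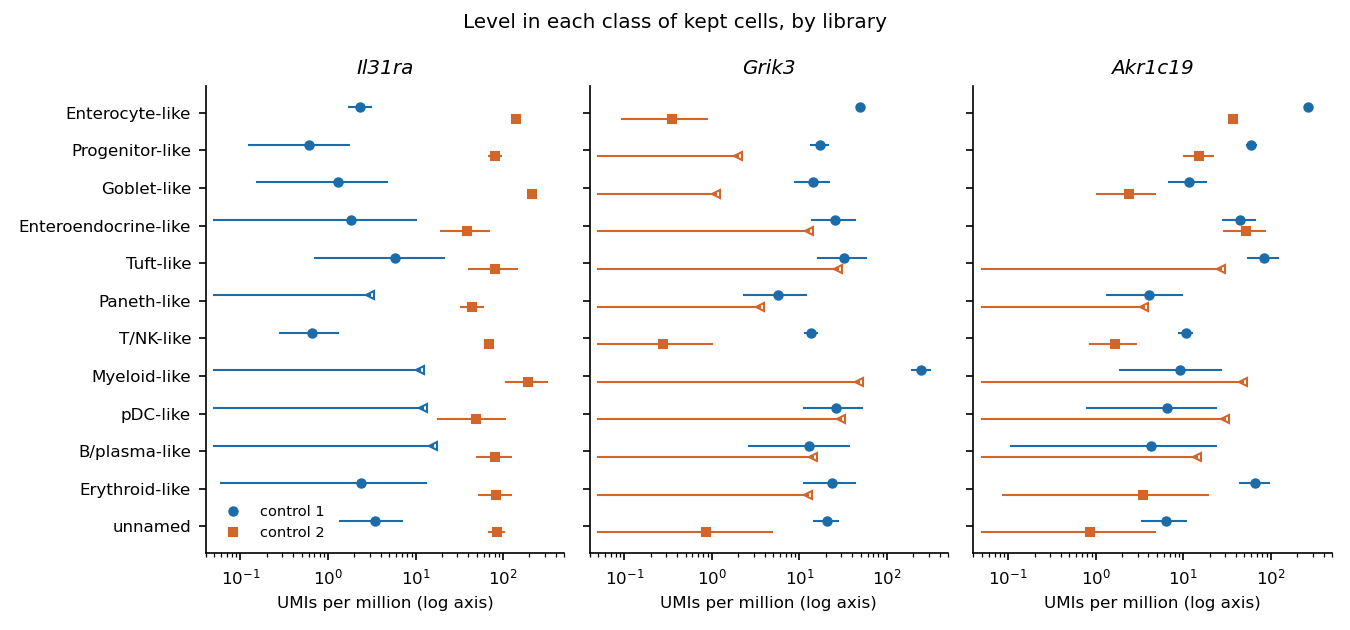
Level of each gene (x axis, CPM, log axis) in each class of kept cells, for control 1 (circles) and control 2 (squares). Bars are exact 95% Poisson intervals; open triangles mark the upper limit where no UMI was found. Il31ra spans 38.6 to 216 in control 2, Grik3 5.74 to 247 in control 1, and Akr1c19 is led by enterocyte-like cells at 269 in control 1.

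Cells with more than 1 of the genes were counted within each library. In control 1, 526 kept cells had both Grik3 and Akr1c19, which is 47.5% of the Grik3 cells and 26.1% of the Akr1c19 cells. Among enterocyte-like cells 453 had both, of 731 with Grik3 and 1707 with Akr1c19. In control 2, 156 cells had both Il31ra and Akr1c19, 10.3% of the Il31ra cells.

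Genes next to the 3 on the chromosome differed less between the libraries, at most 2.21-fold among those with at least 100 UMIs. The nearest neighbours of Il31ra with at least 100 UMIs were Il6st, which encodes the shared receptor chain gp130 (25.3 and 24.7 CPM in control 1 and control 2), and Slc38a9 (27.7 and 27.5). Around Grik3, the 5 neighbours with at least 100 UMIs had ratios of control 1 to control 2 from 0.696 (Zc3h12a) to 1.43 (Lsm10). Around Akr1c19, its relatives Akr1c13 and Akr1c12 were higher in control 1, at 154 against 69.7 (2.21-fold) and 117 against 69.2 (1.69-fold), and Akr1c14 was at 20.3 against 18.5 (1.10-fold). Akr1c19 also lies 5.62 Mb from the M3 receptor gene Chrm3 on chromosome 13. Of 56 genes with at least 100 UMIs within 10 Mb of Chrm3, none passed a 10-fold difference and 2, Akr1c19 and Gm47507, passed 5-fold in opposite directions, beside 0.696% of all genes, with a median ratio of 0.980 beside 0.977 for all genes. Of 232 genes within 10 Mb of the M1 receptor gene Chrm1, 1 passed 10-fold and 4 passed 5-fold, all higher in control 2, with a median ratio of 1.03.

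The ligand and co-receptor of Il31ra were nearly absent from the counts. Its ligand Il31 had no UMI in either library, which allows up to 0.0821 CPM in control 1 and 0.135 in control 2 at the 95% limit, and its co-receptor Osmr had 2 and 0 UMIs. The kinase genes Jak1 (160 and 174 CPM) and Jak2 (87.8 and 127) and the transcription factor gene Stat3 (105 and 120) were detected in both, each higher in control 2 with intervals that did not overlap. Other genes of the list went the other way. Socs1 was at 17.9 (16.7 to 19.2) in control 1 and 13.8 (12.4 to 15.3) in control 2, and Socs3 was at 6.30 and 4.94 with overlapping intervals. Of the 27 other genes of the interleukin-6 and interleukin-31 receptor family list, 17 had at least 100 UMIs, none passed a 10-fold difference, and their ratios of control 1 to control 2 ran from 0.584 (Clcf1) to 2.00 (Lifr) with a median of 0.919.

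Other glutamate receptor genes were rare. Grik1 and Grik2, further kainate receptor subunits, had 8 and 5 UMIs in control 1, and the auxiliary subunit genes Neto1 and Neto2 had 92 and 89. Grik4 had 190 and 66 UMIs in control 1 and control 2, most of them in enteroendocrine-like cells, which shows what a class-restricted member of the family looked like in these libraries. Of the 27 other genes of the list, 8 had at least 100 UMIs, none passed a 10-fold difference, and their ratios ran from 0.699 (Grik5) to 1.75 (Grik4). Among the 16 other aldo-keto reductase genes, 10 had at least 100 UMIs and none passed a 10-fold difference. All 10 had ratios above that of the median gene, from 1.04 (Akr1b8) to 2.21 (Akr1c13) with a median of 1.24. Akr1b7, a further intestinal reductase, was at 166 and 97.5 CPM.

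The level of Akr1c19 per Akr1c13 UMI also differed between the libraries: 889 Akr1c19 UMIs for every 1000 of Akr1c13 in control 1 (859 to 920) and 255 in control 2 (230 to 282). These are ratios of UMIs of 2 genes counted at their 3′ ends and not a comparison of transcript numbers per length. Across the 7 classes of control 1 the levels of Akr1c19 had a Pearson r of 0.86 with Akr1c12, 0.84 with Akr1c13 and -0.46 with Marcksl1, the parent of the pseudogene in its 3′ UTR. For Il31ra in control 2 the r with Tuba1b, the parent of its overlapping pseudogene, was -0.33. There were 163 Il31ra UMIs for every 1000 of Tuba1b in progenitor-like and 28840 in goblet-like cells, a 177-fold span. For Akr1c19 and Marcksl1 in control 1 the span over classes was 1064-fold, beside 2.81-fold for Grik3 and Ftl1.

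Over the 14 sums of 7 classes in 2 libraries, the genes whose levels were most like Il31ra were Gm15564 (Pearson r 0.98), Gm48099 (0.96), Cmss1 (0.91), Hist2h2aa1 (0.87) and Cdk8 (0.86). All 5 were higher in control 2, from 0.868 against 87.1 CPM for Gm15564 to 458 against 1098 for Cdk8, and Gm15564 and Gm48099 were seen in all 11 classes. For every 1000 Gm15564 UMIs there were 1219 of Il31ra in enterocyte-like (1133 to 1312), 1276 in T/NK-like (1115 to 1460), 1296 in progenitor-like (1009 to 1667) and 1780 in goblet-like cells (1574 to 2016) of control 2. Most like Grik3 were AC154200.1 (0.95), the ghrelin gene Ghrl (0.87), Gm3839 (0.85), Gm35769 (0.84) and Gm46563 (0.81), all higher in control 1. Most like Akr1c19 were the glucuronosyltransferase gene Ugt2a3 (0.91), Oaf (0.90), C1qtnf12 (0.90), the circadian repressor gene Nr1d1 (0.89) and the monoamine oxidase gene Maob (0.89). These were also higher in control 1, by 2.05-, 2.35-, 1.62-, 6.73- and 2.40-fold. The points share 2 libraries and differ in depth, and a gene restricted to the same library is alike by that alone.

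The promoter of Akr1c19 is shown because enterocyte-like cells held most of its UMIs in both libraries in the clustering reported. The sequence is from RefSeq (GRCm38.p6), chr13:4233490-4233732 on the plus strand. It ends before the first exon that starts at this promoter; a longer GENCODE transcript starts upstream at 4228700, so for that transcript the stretch is intron. Matches to GATAA, the core bound by GATA factors, are in capitals on either strand.
Akr1c19 promoter: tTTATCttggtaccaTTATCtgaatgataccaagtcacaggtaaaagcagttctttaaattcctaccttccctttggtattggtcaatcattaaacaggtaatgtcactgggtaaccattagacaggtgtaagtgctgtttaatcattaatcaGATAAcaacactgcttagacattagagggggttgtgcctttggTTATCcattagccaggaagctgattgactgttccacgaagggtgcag
The 250 bases before the RefSeq start held 4 matches to GATAA on the 2 strands together; 0.119% of the 32851 RefSeq promoter entries held as many, and 22.6% held at least 1. The Il31ra promoter held 2 and the Grik3 promoter none. Matches to TATAAA, searched on both strands, were found in 12.4% of promoters and in none of the 3. The HNF4 half-site CAAAGT was found in 12.6% of promoters and the CDX2 motif TTTATG in 10.8%. Akr1c19 and Grik3 held 0 matches to either, and Il31ra held 1 of each. GC content was 40.8% for Akr1c19, 42.0% for Il31ra and 82.0% for Grik3, beside a median of 52.4%. A match describes the letters in this window and not a bound site.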

How the data were processed

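Single-cell RNA was measured in 2 control libraries of mouse proximal small intestine. The deposited matrices hold raw UMI counts per gene and barcode from Cell Ranger 7.1.0, per the file headers, and the submitters' processing notes also name Cell Ranger 6.1 and the builds GRCm38 and mm10. The annotation and the handling of intronic reads are not given in the sources used here. Per the labels' protocols, tissue was held in 20 mM EDTA for 60 min and in TrypLE for 10 min, strained at 30 µm and loaded at 80% viability or more. The genes and the lists compared with them were chosen with earlier results of these data known.

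Kept cells had at least 500 genes and under 25% mitochondrial UMIs. With scanpy 1.11.5, counts were scaled to 10000 per cell, logged, and clustered by Leiden at resolution 1.0 (2000 variable genes, 40 components, 15 neighbours). The members, 79 list genes in all, mitochondrial and ribosomal protein genes were left out. Clusters were named by mean marker score; a class qualified with 3 or more of its markers each seen in at least 10% of the cells, and the best-scoring one was taken. A cluster stayed unnamed where another class had more markers among its 10 leading genes, where the score was not above 0, or where it was shallow and none of its markers led. Scrublet scored doublets at an expected rate of 0.06. Counts were summed and given as counts per 1000000 UMIs (CPM) with exact Poisson 95% intervals, and shares of cells with exact binomial ones. Ratios of levels between libraries took the floor of 3 UMIs for a library below it in the comparison of all genes. The ratio code was tested on simulated data. Upper limits for classes with no UMI in the plots are the upper ends of the 95% intervals. No test was run: there is 1 group of 2 libraries. Pseudogene identity came from BLAST+ 2.17.0 against GENCODE M21 transcripts.

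Named genes were the 3 members, detected list genes and chromosome neighbours, the 5 genes most like each member over classes, the 10 with the largest ratio between libraries in each direction, and the 5 most over-represented in each member's top 10 barcodes. Ftl1, Ftl1-ps1, Tuba1b and Marcksl1, the ratios to partner genes, the mitochondrial bins, the promoter motifs and the windows around Chrm3 and Chrm1 were chosen after seeing the data. Alternatives were other cell filters, clusterings and denominators, leaving out the barcodes with most UMIs, and all barcodes.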

Additional observations from a re-analysis of the deposited data

How the results depend on the processing

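The direction of the difference between the libraries was the same for the 3 genes under each alternative run. With all deposited barcodes the Il31ra ratio was 31.9, the Il31ra level in control 2 was 126 CPM, the Grik3 level in control 1 was 29.7 and the Akr1c19 level in control 1 was 117, and the top 10 barcodes held 4.74% of the Il31ra UMIs. Without cells over 50000 UMIs, an alternative chosen after seeing the data, the ratios were 74.0 (Il31ra), 145 (Grik3) and 7.26 (Akr1c19). Without mitochondrial and hemoglobin UMIs in the denominator the levels were 125 (Il31ra), 34.5 (Grik3) and 144 (Akr1c19). Under 10% mitochondrial UMIs, Il31ra in control 2 was at 99.3 and the top 10 barcodes held 10.4% of the Akr1c19 UMIs. With at least 200 genes, Il31ra was at 112 and Akr1c19 at 133. Without the 10 barcodes with most UMIs of the gene, Il31ra was at 111 and Akr1c19 at 130, and the next 10 barcodes held 3.97% (Il31ra), 3.12% (Grik3) and 5.57% (Akr1c19) of the UMIs left; without the single barcode with most, the Akr1c19 share was 8.33%. Barcodes with at least 2 UMIs numbered 622 for Il31ra, 229 for Grik3 and 1043 for Akr1c19.

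The share of UMIs in enterocyte-like cells depended on the cell filter. For Il31ra it was 50.2% as reported, 35.4% under 10% mitochondrial UMIs and 28.8% with at least 200 genes; for Grik3 these were 69.6%, 54.4% and 46.0%, and for Akr1c19 91.0%, 59.7% and 52.4%. Under the 10% filter 137 enterocyte-like cells of control 1 and 171 of control 2 were left out and 167 and 57 were called progenitor-like; with at least 200 genes 373 and 842 were unnamed. For Akr1c19 that share was 93.1% at Leiden resolutions 0.5 and 2.0, 88.8% with each library clustered by itself and 90.1% without the top 10 barcodes. The Grik3 level in myeloid-like cells was 247 in the clustering reported, beside 49.1 in enterocyte-like cells. It was 153 under 10% mitochondrial UMIs (enterocyte-like 70.4) and 129 without the 6% highest doublet scores (enterocyte-like 49.9). At resolution 0.5 it was 125 (enterocyte-like 48.3) and at resolution 2.0 it was 121 (enterocyte-like 48.4). With each library clustered by itself it was 125 (enterocyte-like 49.4).

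No paired analysis was possible because there is 1 group of 2 libraries and no comparison between groups. Leaving out a library was not run, since each value belongs to 1 library. Levels that rest on under 30 UMIs, as in the tuft-like and enteroendocrine-like classes, are limited by depth.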

Other observations

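Grik3 was not alone in holding a processed pseudogene on its own strand that no row of the count tables matched. Of the 16 genes at least 10-fold higher in control 1, 4 held one: Grik3 (Ftl2-ps), AC154200.1 (Oaz1-ps), Gm14164 (Gm14165) and Gm46563 (Gm10343). Of the 19 genes at least 10-fold higher in control 2, 1 did, Il31ra (Gm3226). Among the 13077 tested genes found in the annotation, 531 (4.06%) held one, with a median gene span of 23700 bases beside 12870 for the 16 genes and 981 for the 19. AC154200.1 and Gm46563 were also among the 5 genes whose levels over classes were most like Grik3, which genes restricted to the same library can be by that alone. Grik3 and Il31ra, counted here, were chosen for their difference between the libraries. The genes and counts of this paragraph were looked at after the Grik3 values were seen. No test was made, and nothing is read from the counts.

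Among the 20 genes with the largest ratios, 10 in each direction, the share of UMIs in the top 10 barcodes varied widely. Grik3 (1108 cells), AC154200.1 (1334 cells), Il31ra (1511 cells) and Gm15564 (1250 cells) had UMIs in all 11 named classes of the library where each was high, and the top 10 barcodes held 4.14% to 6.72% of their UMIs. The intestinal bile acid-binding protein gene Fabp6 (14 cells), Igfbp5 (6 cells), an immunoglobulin kappa variable gene, Igkv5-39 (5 cells), and the Paneth cell defensin gene Defa27 (9 cells) had 97.2% to 100% of their UMIs in 10 barcodes. Between these lay Gm48099 (11.9%), Gm46563 (12.3%), Sprr2b (13.0%), Trav16n (22.6%), Bc1 (31.1%) and Hist1h2ap (61.1%), among others.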
